A study of Homo sapiens with 20 samples.

Results

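LIN28A, LIN28B, IGF2BP1, IGF2BP2, IGF2BP3, HMGA1 and DIS3L2 were followed in NGP cells, a neuroblastoma line of human origin, after treatment with nutlin-3. These 7 genes, of 27697 genes tested in all, were chosen by name as oncofetal regulators of RNA and chromatin around the let-7 microRNAs, with earlier results of these data known. Transcripts were assigned to them by GENCODE gene name and their estimated counts were summed. The experiment held 10 samples treated with 8 µM racemic nutlin-3, an inhibitor of MDM2, and 10 samples treated with ethanol, the vehicle. All samples came from the same line, grown in 6-well plates, and the duration of treatment is not given in the sources used here. Poly(A) RNA was sequenced as stranded read pairs, and the samples held between 14455477 and 19532971 estimated read pairs.

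LIN28A and LIN28B are RNA-binding proteins that bind precursors of let-7. LIN28A is known to recruit terminal uridylyltransferases to them, after which DIS3L2, an exonuclease that prefers uridylated RNA, degrades them. Whether LIN28B used this route in these cells was not tested. Mature let-7 represses mRNAs that carry sites in their 3′ UTR, and LIN28B and IGF2BP1 are themselves known targets. IGF2BP1, IGF2BP2 and IGF2BP3 bind and stabilise mRNAs, partly through m6A, and HMGA1 is an architectural chromatin protein that binds the minor groove of AT-rich DNA. LIN28B is known as an oncogene of neuroblastoma, and most of these genes are high in embryonic tissue and low in adult tissue.

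The link among the genes can be read in sequence. The 9 mature let-7 family names of the RefSeq table (GRCh38.p14), miR-98 included, shared 1 seed over bases 2 to 8. Of these, 4 are shown with the seed in capitals, because they differ outside it. The locations given are chr9:94175962-94175983 (+ strand, 1 of the let-7a loci), chr22:46113691-46113712 (+), chr3:52268336-52268357 (−) and chrX:53556299-53556320 (−).
hsa-let-7a-5p: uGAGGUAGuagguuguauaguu
hsa-let-7b-5p: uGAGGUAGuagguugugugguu
hsa-let-7g-5p: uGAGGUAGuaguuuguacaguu
hsa-miR-98-5p: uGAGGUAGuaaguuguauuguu
GGAG, the letters known to be bound by the zinc knuckles of LIN28 proteins, stood 3′ of the 5p arm in 9 of 12 hairpins of the family. The libraries were made from poly(A) RNA, so mature let-7 was not measured.

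The 7 letters complementary to this seed, CTACCTC, were searched on the transcript strand of the 3′ UTR of the canonical transcript of each gene (GENCODE 44, GRCh38). IGF2BP1 and LIN28B held 4 matches each, in UTRs of 6701 and 4549 bases. IGF2BP3, HMGA1, LIN28A and IGF2BP2 held 1 match each, in UTRs of 2153, 1347, 3270 and 2401 bases, and the 562-base UTR of DIS3L2 held none. Of 19218 canonical transcripts, 9.7% held at least 1 match and 12 (0.06%) held at least 4. Among the 3557 with a UTR of at least 3000 bases, 25.9% held a match and 9 (0.25%) held at least 4. The matches in the 4 abundant genes that hold them are shown, as the genes the results turn on, with the letters in capitals and 11 bases on each side.
LIN28B, chr6:105078827-105078833 (+): ggttgcaaagtCTACCTCatgcaagtata
LIN28B, chr6:105081254-105081260 (+): gatgatagtaaCTACCTCtgagtttgaca
LIN28B, chr6:105081436-105081442 (+): acagcaaaaggCTACCTCatagttgatac
LIN28B, chr6:105082875-105082881 (+): gatggtgttgaCTACCTCttgaatcacat
IGF2BP1, chr17:49051076-49051082 (+): tgcgaagtaaaCTACCTCaaggtatgaag
IGF2BP1, chr17:49053713-49053719 (+): agtgctagtaaCTACCTCacagagcccca
IGF2BP1, chr17:49054367-49054373 (+): aaatggattaaCTACCTCaatccttacag
IGF2BP1, chr17:49055012-49055018 (+): ttttgttttatCTACCTCttagcaaaaca
IGF2BP3, chr7:23311796-23311802 (−): tttttactcaaCTACCTCaggtattcagt
HMGA1, chr6:34245844-34245850 (+): ctgttcacaaaCTACCTCtggacagttgt
A match is a description of the letters and was not tested as a site. The sequences are of a later annotation release than the authors' index, and several UTRs differ in length between the releases.

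All 7 genes passed the test between conditions. LIN28B, IGF2BP1, IGF2BP3 and HMGA1 were lower after nutlin, and LIN28A, IGF2BP2 and DIS3L2 were higher. Of all genes tested, 26.5% were called lower and 32.3% higher by the same test, edgeR's quasi-likelihood F-test with TMM normalization at 5% FDR, so a call by itself does not set these genes apart. Every nutlin sample was below every vehicle sample for the 4 genes that fell, against 16.6% of all genes. Every nutlin sample was above every vehicle sample for LIN28A and DIS3L2, against 12.2% of all genes. All genes include many with few counts, and these shares were not taken among genes of like level. Among mRNAs with a mean of at least 10 CPM, 59.3% were called lower and 26.0% higher by the test. In bulk RNA, fewer cells of a type and less RNA per cell cannot be told apart. Levels are given in CPM, counts scaled to library size with TMM, and the plot of CPM by sample shows all 7 genes.

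**Figure D1:**
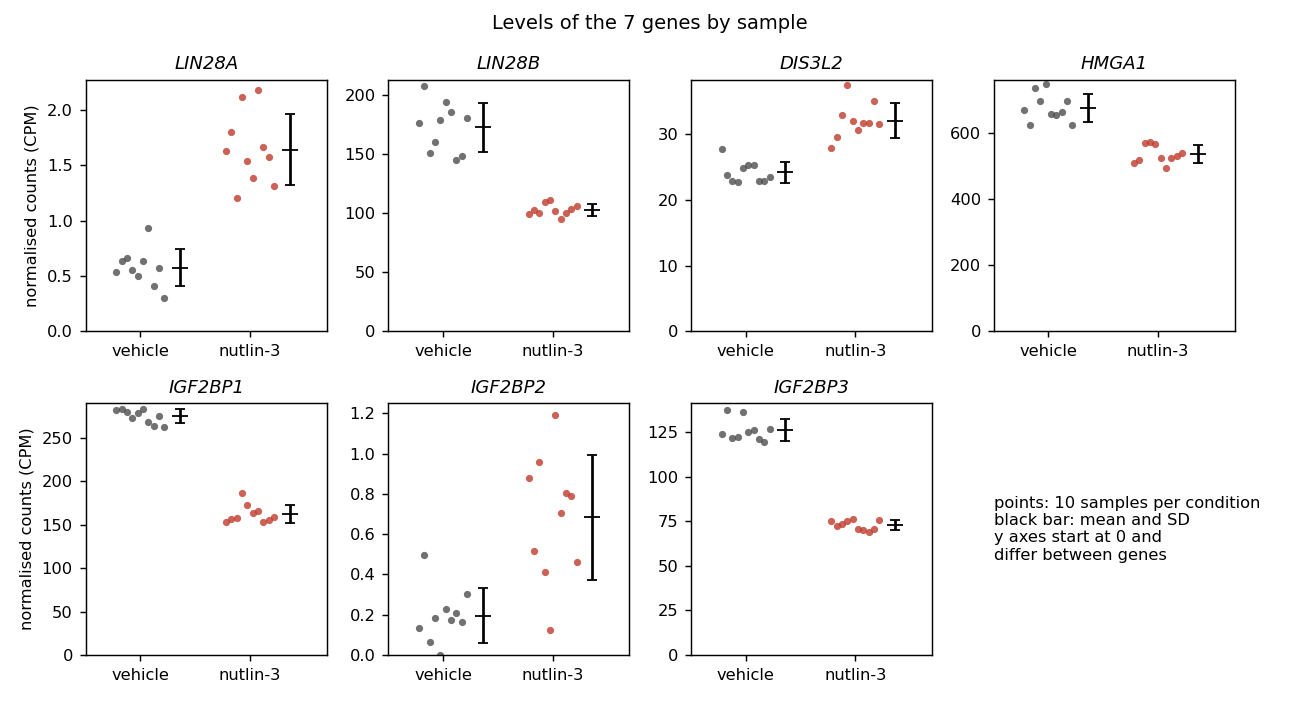
TMM-normalised counts, scaled to library size (CPM, vertical axes, each from 0 and different between genes) of the 7 genes in 10 vehicle and 10 nutlin-3 samples. Points are samples and black bars are the mean and SD; the groups overlap in IGF2BP2 alone, and LIN28B spreads more widely in vehicle (145.3 to 207.5 CPM) than after nutlin (94.7 to 111.4 CPM).

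LIN28B was the abundant LIN28 paralogue. Its level in vehicle ran from 145.3 CPM over a median of 177.4 to 207.5 CPM (172.9 ± 20.8, SD, n = 10). After nutlin it ran from 94.7 over 102.2 to 111.4 CPM (102.9 ± 4.96, SD, n = 10). The groups were apart, and the lowest vehicle sample stood well above the highest nutlin sample. The log2 fold change (LFC) was −0.75 ± 0.05 (SE), and the level fell by 40.5% (edgeR quasi-likelihood test with Benjamini-Hochberg adjustment, adjusted p = 2.617e-13).

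The spread of LIN28B among vehicle samples was set beside a property of the libraries. The share of mRNA counts on 1491 genes with an effective length of at least 5000 bases ran from 8.16% to 10.08% in vehicle and from 9.63% to 10.97% after nutlin. The vehicle sample with the lowest LIN28B (145.3 CPM) had the lowest such share (8.16%), and the vehicle sample with the highest LIN28B (207.5 CPM) had the highest (10.08%). After nutlin the order was the other way at the low end, where the sample with the lowest share (9.63%) had the highest LIN28B (111.4 CPM). The part of transcript length in this spread was not tested. Nutlin samples had the larger mean share and the lower LIN28B. With an offset for effective length the LFC of LIN28B was −0.77 ± 0.06 (SE, edgeR adjusted p = 1.27e-12). LIN28B was counted on 1 transcript, and the offset is relative to the gene's own mean length, so it could hardly move this LFC. The offset does not address a difference between libraries in the recovery of long transcripts.

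LIN28A, the paralogue of pluripotent cells, was near the limit of detection. Vehicle samples held 5 to 16 counts each, 88 in all, and nutlin samples held 20 to 34 each, 256 in all. In CPM this was 0.301 to 0.934 (median 0.560) in vehicle and 1.20 to 2.18 (median 1.60) after nutlin. The groups did not overlap. The fold was 2.82 (LFC 1.50 ± 0.18, SE, edgeR adjusted p = 1.154e-08), from 0.574 ± 0.168 to 1.64 ± 0.321 CPM (SD, n = 10 each). Under quantile normalization the LFC was 0.90 ± 0.15 (SE, limma adjusted p = 2.248e-05). The rise of LIN28A did not balance the fall of LIN28B in abundance. In TPM, which is per transcript length, LIN28B made up 99.54% ± 0.12 (SD, n = 10) of the pair in vehicle and 97.82% ± 0.44 (SD, n = 10) after nutlin.

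DIS3L2 rose, while LIN28B fell. Its lowest, median and highest levels were 22.8, 23.7 and 27.7 CPM in vehicle and 27.9, 31.7 and 37.6 CPM after nutlin. The groups were apart by a narrow margin, set by vehicle replicate 3 as the highest vehicle sample, and the next highest was at 25.3 CPM. Its mean went from 24.2 ± 1.60 to 32.1 ± 2.70 CPM (SD, n = 10 each), an increase of 32.4% (LFC 0.40 ± 0.05, SE, edgeR adjusted p = 2.449e-08). In TPM the groups overlapped, at 10.5 to 17.7 in vehicle and 14.2 to 22.5 after nutlin. The ratio of LIN28B to DIS3L2 within a sample, on the log2 TPM scale, was 1.07 to 1.54 in vehicle and −0.08 to 0.45 after nutlin. These ranges did not overlap, and the mean was lower by 1.16 after nutlin. The level of this ratio depends on which transcripts of DIS3L2 are counted.

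IGF2BP1, an RNA-binding protein that stabilises mRNAs, fell. It ran from 263.4 over 277.5 to 283.4 CPM in vehicle (275.3 ± 7.88, SD, n = 10) and from 153.1 over 158.7 to 186.6 CPM after nutlin (162.6 ± 10.6, SD, n = 10). Every nutlin sample was far below every vehicle sample. The LFC was −0.76 ± 0.03 (SE, edgeR adjusted p = 5.507e-18), so that the level fell by 41.0%.

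IGF2BP3, its paralogue, fell too. It ran from 119.8 over 124.6 to 137.8 CPM in vehicle (126.2 ± 6.15, SD, n = 10) and from 69.0 over 72.8 to 76.5 CPM after nutlin (72.9 ± 2.62, SD, n = 10). The groups were apart. The LFC was −0.79 ± 0.03 (SE, edgeR adjusted p = 5.035e-19), and the level fell by 42.3%. With the offset for effective length the LFC of IGF2BP1 was −0.61 ± 0.03 (SE) and that of IGF2BP3 −0.51 ± 0.05 (SE), beside −0.77 ± 0.06 (SE) for LIN28B, and the differences between the genes were not tested.

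IGF2BP2, the paralogue that adult tissues keep, was close to absent. Vehicle samples held 0 to 7 counts, 30 in all, and nutlin samples 2 to 18, 107 in all. The level ran from 0 over 0.179 to 0.497 CPM in vehicle (0.196 ± 0.135, SD, n = 10) and from 0.123 over 0.747 to 1.19 CPM after nutlin (0.683 ± 0.310, SD, n = 10). The groups overlapped. The LFC was 1.76 ± 0.36 (SE, edgeR adjusted p = 9.232e-05). It was 1.02 ± 0.36 (SE, limma adjusted p = 0.0238) under quantile normalization and 2.29 ± 0.47 (SE, edgeR adjusted p = 1.247e-04) with the length offset. IGF2BP2 shares its span with the antisense lncRNA IGF2BP2-AS1, which held a mean of 2.30 counts in vehicle and 8.75 after nutlin. The use of strand in the counting is not given in the sources used here, so reads of the pair cannot be told apart.

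HMGA1 was the most abundant of the genes and had the smallest LFC of the 4 that fell. It ran from 622.5 over 665.4 to 747.6 CPM in vehicle (676 ± 42.4, SD, n = 10) and from 494.9 over 526.5 to 573.5 CPM after nutlin (534.4 ± 27.1, SD, n = 10). The groups did not overlap on this scale. The LFC was −0.34 ± 0.04 (SE, edgeR adjusted p = 4.309e-09), a level that fell by 21.0%, whereas quantile normalization gave 0.02 ± 0.04 (SE, limma adjusted p = 0.671). HMGA1 therefore was lower under TMM and was not called under quantile normalization. Processed pseudogenes named after HMGA1 held at most 6.83 counts on average in either condition, so few reads were assigned to these copies.

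The changes of the genes above 10 CPM were set beside those of other mRNAs above it, without matching by level. Among 9443 mRNAs with a mean of at least 10 CPM, 59.3% were called lower and 26.0% higher, and the median LFC was −0.24. Of these mRNAs, 16.9% had a lower LFC than LIN28B, 16.4% than IGF2BP1 and 15.2% than IGF2BP3. HMGA1 lay near the middle, with 42.1% below it, and DIS3L2 lay high, with 85.6% below it. Quantile normalization moved the median of these mRNAs to −0.04 and DESeq2 size factors moved it to −0.19. Of all genes called, 54.9% were higher with TMM and 48.2% with quantile normalization. Relative to the median mRNA, LIN28B, IGF2BP1 and IGF2BP3 were thus lower and DIS3L2 higher under each of these scalings, as the plot of fold changes under TMM and quantile normalization shows. MDM2, whose product nutlin-3 binds, went from 244.9 to 5564 CPM (LFC 4.51 ± 0.07, SE, edgeR adjusted p = 5.606e-29), with every nutlin sample above every vehicle sample.

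**Figure D2:**
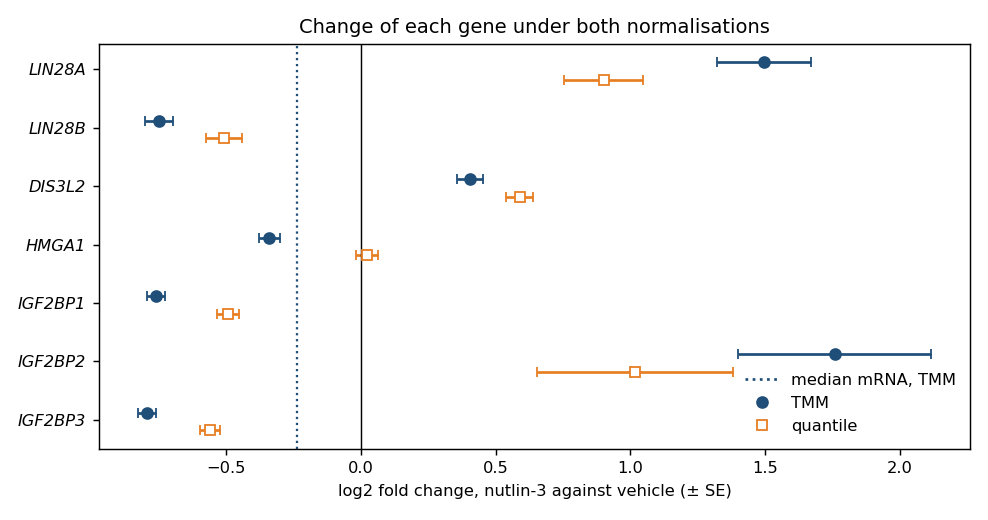
Log2 fold change of nutlin-3 against vehicle (horizontal axis, bars are SE, n = 10 each) of the 7 genes with TMM (blue circles) and with quantile normalization (orange squares); the dotted line is the median LFC of mRNAs with at least 10 CPM under TMM. HMGA1 moves from −0.34 to 0.02 between the normalizations, and the other genes keep their side of 0.

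Per transcript length the order of the genes in vehicle was HMGA1 (404 ± 29.5 TPM), IGF2BP3 (50.5 ± 4.15), IGF2BP1 (37.1 ± 3.19), LIN28B (33.9 ± 5.97), DIS3L2 (13.1 ± 2.11), LIN28A (0.158 ± 0.052) and IGF2BP2 (0.124 ± 0.107) (SD, n = 10). HMGA1 stood above 98.5% of the 17351 mRNAs tested, and LIN28B above 80.1%. IGF2BP1 was above LIN28B in 8 of 10 vehicle samples, and LIN28A above IGF2BP2 in 5 of 10, so these neighbours did not differ beyond their spread. After nutlin the order was HMGA1 (317 ± 15.8 TPM), IGF2BP3 (35.6 ± 2.63), IGF2BP1 (24.4 ± 1.53), LIN28B (19.8 ± 1.13), DIS3L2 (17.3 ± 2.43), IGF2BP2 (0.523 ± 0.314) and LIN28A (0.440 ± 0.090) (SD, n = 10). LIN28B and DIS3L2 were 2.59-fold apart in vehicle and 1.14-fold apart after nutlin, where LIN28B was the higher in 8 of 10 samples. This nearness depends on the transcripts counted. A coding form of DIS3L2 of 659 bases held 37.0% of its TPM in vehicle and 35.6% after nutlin, on means of 35.3 and 46.7 counts. The coding form that spans the annotated gene held 2.41 and 3.24 TPM. In CPM, which is not per length, LIN28B was at 172.9 and 102.9 and DIS3L2 at 24.2 and 32.1.

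Which IGF2BP paralogue led depended on the transcripts counted. Over all transcripts, IGF2BP3 held 57.6% ± 1.61 (SD, n = 10) of the summed TPM of the 3 genes in vehicle and 58.8% ± 2.14 (SD, n = 10) after nutlin, and IGF2BP1 held 42.3% ± 1.59 and 40.4% ± 1.99. These shares overlapped between conditions. Over protein-coding transcripts alone, IGF2BP1 and IGF2BP3 held 49.8% and 50.1% in vehicle. After nutlin the coding share was 55.0% for IGF2BP1 and 44.5% for IGF2BP3, and here the conditions did not overlap. IGF2BP2 held under 1% on average in each case.

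The listed transcripts of IGF2BP3 moved unequally. It was listed with 18 transcripts. The 2 coding ones went from 35.7 ± 3.18 to 17.5 ± 1.53 TPM (SD, n = 10 each), and the 6 with a retained intron went from 11.9 ± 3.48 to 13.4 ± 3.13 TPM. The retained-intron transcripts thus made up 23.3% ± 5.84 of IGF2BP3 in vehicle and 37.4% ± 6.66 after nutlin (SD, n = 10 each), and these shares overlapped between conditions. Few counts lay behind them, a mean of 78.5 in vehicle and 120.2 after nutlin, against 1818 and 976.2 for the coding transcripts.

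Among 58 listed transcripts of the 7 genes, 42 were tested, and 7 were called lower and 6 higher. Over all 119877 transcripts tested, 10.7% were called lower and 12.7% higher. IGF2BP3-201, the full-length form, held 21.9 to 30.4 TPM in vehicle and 12.4 to 15.3 TPM after nutlin, with no overlap (LFC −0.83 ± 0.04, SE, edgeR adjusted p = 2.904e-13). IGF2BP3-218, a shorter coding form from the 3′ part of the gene, went from 9.98 ± 1.15 to 3.44 ± 1.13 TPM (LFC −1.50 ± 0.17, SE, edgeR adjusted p = 2.813e-07). In the opposite direction, IGF2BP3-206, a retained-intron transcript from the 5′ part of the gene, went from 0.382 ± 0.123 to 1.18 ± 0.207 TPM (LFC 1.66 ± 0.17, SE, edgeR adjusted p = 6.272e-08), on means of 15.5 and 50.2 counts. The samples of the conditions did not overlap for IGF2BP3-206, at 0.239 to 0.616 and 0.917 to 1.56 TPM. IGF2BP3-217, a retained-intron transcript that held 15.0% of IGF2BP3 in vehicle, was not called (LFC −0.21 ± 0.22, SE, edgeR adjusted p = 0.574). The plot of transcripts by sample sets these side by side.

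**Figure D3:**
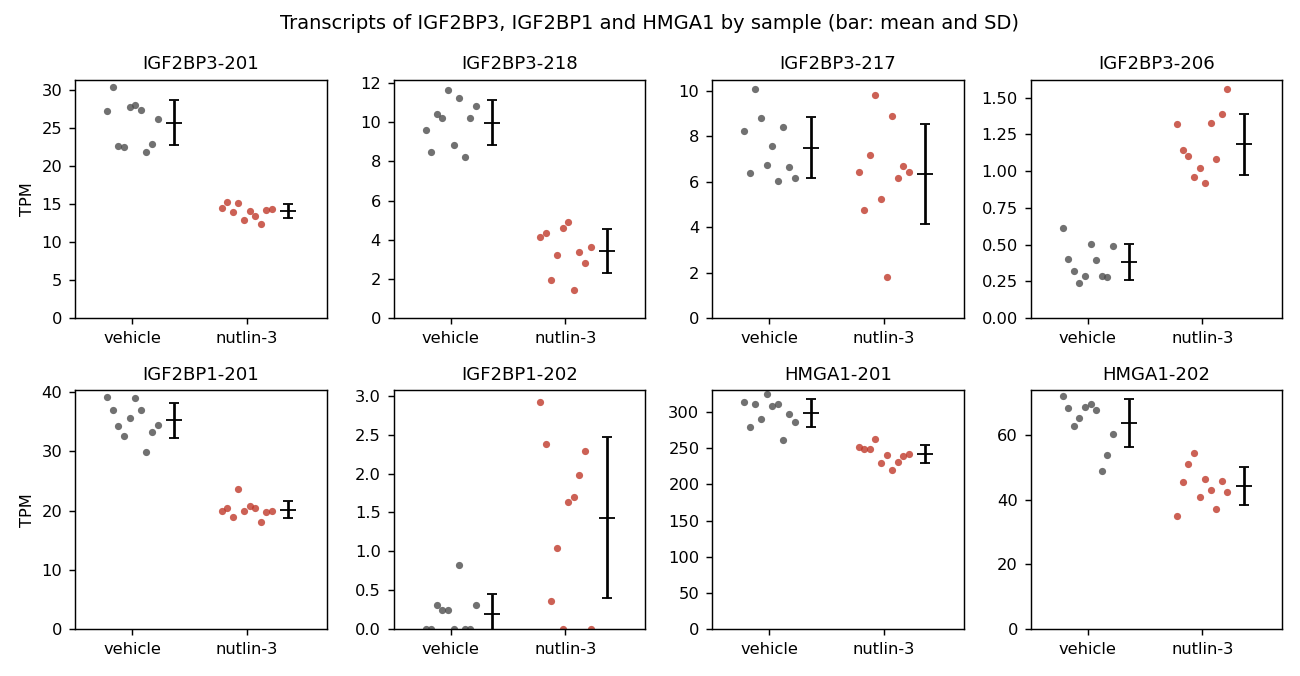
TPM (vertical axes, each from 0) of 8 transcripts of IGF2BP3, IGF2BP1 and HMGA1 in 10 vehicle and 10 nutlin-3 samples, with mean and SD as black bars. IGF2BP3-201, IGF2BP3-218, IGF2BP1-201 and HMGA1-201 fall while IGF2BP3-206 rises from 0.382 to 1.18 TPM; IGF2BP3-217 overlaps between conditions.

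A test of transcript usage, which asks whether the transcripts of a gene change unequally, called IGF2BP3 (edgeR diffSpliceDGE, adjusted p = 1.478e-06) and IGF2BP1 (adjusted p = 0.0225). Of 10148 genes in this test, 19.9% were called. IGF2BP3-206 had an LFC of 2.47 relative to the gene, and IGF2BP3-218 one of −0.69. For IGF2BP1, the transcript that moved relative to the gene was IGF2BP1-206, which is short with no coding sequence defined (relative LFC 1.45). It held means of 12.3 and 20.8 counts and overlapped between conditions in TPM. By itself it was not called (LFC 0.69 ± 0.39, SE, edgeR adjusted p = 0.242). The call for IGF2BP1 was lost over the 16 samples whose replicate number occurs in both conditions (diffSpliceDGE adjusted p = 0.108). HMGA1 and DIS3L2 were not called (diffSpliceDGE adjusted p = 0.127 and 0.608). LIN28A, LIN28B and IGF2BP2 had too few transcripts or counts for this test. The estimated counts carry kallisto's uncertainty in dividing reads among transcripts, which these tests did not model. IGF2BP3 also overlaps MALSU1 on the other strand, which went from a mean of 486.9 to 202.4 counts.

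IGF2BP1-201 held 95.0% of IGF2BP1 in vehicle and 82.7% after nutlin, and went from 35.3 ± 2.93 to 20.2 ± 1.45 TPM (LFC −0.76 ± 0.04, SE, edgeR adjusted p = 8.177e-14). Its share in each nutlin sample was below that in each vehicle sample. IGF2BP1-202, a second coding transcript, was at 0 in some samples of both conditions and rose from a mean of 0.192 to 1.43 TPM (LFC 2.81 ± 0.86, SE, edgeR adjusted p = 0.0186), on means of 3.39 and 24.7 counts. DIS3L2 was divided among many transcripts. DIS3L2-201, the coding form that spans the annotated gene, rose (LFC 0.48 ± 0.14, SE, edgeR adjusted p = 0.0163), as did DIS3L2-208, annotated as a target of nonsense-mediated decay (LFC 1.31 ± 0.24, SE, edgeR adjusted p = 2.374e-04). A short coding form of DIS3L2, which had the highest TPM of the gene, was not called (LFC 0.37 ± 0.14, SE, edgeR adjusted p = 0.0687). DIS3L2-202, the canonical coding transcript, was not called either (LFC −0.03 ± 0.33, SE, edgeR adjusted p = 0.980). Its mean share of the gene was 14.2% in vehicle and 10.3% after nutlin.

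HMGA1 makes a longer protein, HMGA1a, and a shorter one, HMGA1b, that lacks 11 residues between its AT-hook motifs. The 33 bases that HMGA1a mRNAs carry in addition lie in a coding exon at chr6:34240883-34240915 (+ strand, GRCh38), where 2 placements of the segment are equivalent, and are shown in capitals with 12 bases on each side.
HMGA1-201: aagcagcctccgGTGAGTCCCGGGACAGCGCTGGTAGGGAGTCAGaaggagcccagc
Transcripts of HMGA1a summed to 317 ± 20.8 TPM in vehicle and 252 ± 12.6 TPM after nutlin, and those of HMGA1b to 85.6 ± 9.37 and 60.6 ± 7.84 TPM (SD, n = 10 each). Neither form overlapped between conditions. HMGA1b made up 18.5% to 22.7% of the 2 forms in vehicle and 14.3% to 21.6% after nutlin, and these shares overlapped. HMGA1-201, the main HMGA1a transcript, fell from 299 ± 19.1 to 242 ± 12.5 TPM (LFC −0.27 ± 0.04, SE, edgeR adjusted p = 3.669e-06). HMGA1-202, the main HMGA1b transcript, fell from 63.7 ± 7.43 to 44.1 ± 5.89 TPM (LFC −0.49 ± 0.07, SE, edgeR adjusted p = 9.986e-06). These calls are under TMM, where the median mRNA had an LFC of −0.24.

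NGP cells have high MYCN, and the E-box CACGTG is the letter pattern to which MYC proteins bind best. It was looked for in the RefSeq promoter windows (GRCh38.p14, 250 bases before to 50 after a gene start, the letters being the same on both strands). Of 35116 windows, 7.3% held it and 0.66% held it at least 2 times. IGF2BP3 held 2, starting 174 and 146 bases before the start, and LIN28B held 1, starting 47 bases before the start of LIN28B-201, the transcript counted. A second LIN28B window, at an upstream start (chr6:104940715-104940964 before the start), and the windows of HMGA1, DIS3L2 and IGF2BP2 held none. The letters TTTGAA of the CHR promoter element were searched as well, on both strands. Of the windows, 15.2% held them and 2.27% held them at least 2 times. IGF2BP3 held 2 such matches and a window of IGF2BP2 held 1, and the windows of LIN28B, HMGA1 and DIS3L2 held none. Windows of LIN28A and IGF2BP1 were not analysed here. The 250 bases before these starts of IGF2BP3 (chr7:23470492-23470741, − strand) and LIN28B (chr6:104956857-104957106, + strand) are shown with the E-boxes in capitals.
IGF2BP3: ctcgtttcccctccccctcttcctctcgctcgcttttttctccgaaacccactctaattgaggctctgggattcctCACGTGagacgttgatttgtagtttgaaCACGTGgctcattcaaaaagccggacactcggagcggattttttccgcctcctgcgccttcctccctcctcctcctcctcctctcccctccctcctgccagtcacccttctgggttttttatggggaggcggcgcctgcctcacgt
LIN28B: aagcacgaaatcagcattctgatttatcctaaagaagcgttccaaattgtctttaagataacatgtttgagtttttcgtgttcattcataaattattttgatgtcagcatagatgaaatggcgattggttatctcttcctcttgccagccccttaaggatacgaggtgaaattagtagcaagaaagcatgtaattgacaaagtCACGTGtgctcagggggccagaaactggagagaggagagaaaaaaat
A match is a description of letters, and binding was not measured here. MYCN itself, chosen for mention after its values were seen, went from 3799 to 2865 CPM (LFC −0.41 ± 0.04, SE, edgeR adjusted p = 2.453e-10), with every nutlin sample below every vehicle sample.

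The genes were then set beside the other genes of their pathways, from lists whose counts are descriptions (the plot of listed genes shows every value). Of 15 genes that make, modify or load let-7, 10 (66.7%) fell and 4 (26.7%) rose, with a median LFC of −0.29. These shares are near those of mRNAs with at least 10 CPM, of which 59.3% fell and 26.0% rose with a median LFC of −0.24. Under quantile normalization 7 were called lower and 4 higher, with a median LFC of −0.07. KHSRP, which aids the processing of let-7 precursors, fell (LFC −0.89 ± 0.03, SE, edgeR adjusted p = 3.774e-20), as did TARBP2, the partner of Dicer (LFC −0.82 ± 0.05, SE, edgeR adjusted p = 2.559e-15). AGO2, the slicing Argonaute, rose (LFC 0.59 ± 0.05, SE, edgeR adjusted p = 4.423e-12). TUT4, a uridylyltransferase that LIN28A recruits, rose from 81.5 to 114 CPM (LFC 0.48 ± 0.03, SE, edgeR adjusted p = 1.706e-14). The other 2 that rose, TUT7 and AGO3, had LFC values of 0.34 and 0.40. TUT7, the paralogue of TUT4, went from a mean of 21.1 to 26.8 CPM with overlapping groups, and like AGO3 was named after its values were seen. Of 5 host genes of let-7 hairpins, 4 fell and 1 rose, where 26.5% of all genes tested fell and 32.3% rose. MIR99AHG fell from 1.52 to 0.692 CPM with overlapping groups (LFC −1.14 ± 0.22, SE, edgeR adjusted p = 5.149e-05). MIRLET7BHG fell from 8.44 to 5.30 CPM (LFC −0.67 ± 0.08, SE, edgeR adjusted p = 5.819e-09). The groups overlapped for MIR100HG as well, with an LFC of −0.20. The 1 that rose, MIRLET7A1HG, had a mean of 0.119 CPM. Under quantile normalization XPO5, DICER1 and HUWE1 turned to LFC values above 0, and with the length offset DICER1 and MIR100HG did.

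DIS3L2 was set beside RNA exosome subunits and related nucleases. Of 15 such genes, 10 (66.7%) fell and 1 rose, with a median LFC of −0.52, where 59.3% of mRNAs with at least 10 CPM fell. Under quantile normalization 9 were called lower and 5 higher, with a median LFC of −0.28. EXOSC9, a subunit of the exosome ring, fell (LFC −1.25 ± 0.04, SE, edgeR adjusted p = 2.696e-21), as did DIS3L, the cytoplasmic exosome nuclease and a paralogue of DIS3L2 (LFC −1.21 ± 0.08, SE, edgeR adjusted p = 3.725e-14). XRN1, the cytoplasmic 5′ to 3′ exonuclease, rose (LFC 0.18 ± 0.06, SE, edgeR adjusted p = 0.0130). Of 10 known protein partners of IGF2BP complexes, 9 (90%) fell and none rose, with a median LFC of −0.71, where 59.3% of mRNAs with at least 10 CPM fell. DHX9, an RNA helicase, fell to 428.7 from 859.9 CPM (LFC −1.0 ± 0.03, SE, edgeR adjusted p = 1.299e-22), and SYNCRIP fell from 424.9 to 217.5 CPM (LFC −0.97 ± 0.04, SE, edgeR adjusted p = 1.471e-18). PABPC1 had an LFC of −0.02 and was not called.

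Of 14 m6A writers, erasers and YTH readers, 13 (92.9%) fell and 1 rose, where 59.3% of mRNAs with at least 10 CPM fell, with a median LFC of −0.26, near that of the median mRNA. Under quantile normalization 4 were called lower and 3 higher. ALKBH5, a demethylase, fell (LFC −0.66 ± 0.04, SE, edgeR adjusted p = 8.164e-16), as did FTO, also a demethylase (LFC −0.39 ± 0.03, SE, edgeR adjusted p = 1.353e-11). METTL3, the catalytic methyltransferase, rose (LFC 0.18 ± 0.04, SE, edgeR adjusted p = 9.399e-05).

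Of 17 other known let-7 targets, 10 (58.8%) fell and 5 (29.4%) rose, near the 59.3% and 26.0% of mRNAs with at least 10 CPM, with a median LFC of −0.41. RRM2, a subunit of ribonucleotide reductase (LFC −2.93 ± 0.06, SE, edgeR adjusted p = 5.246e-27), and CDC25A, a phosphatase of the cell cycle (LFC −2.81 ± 0.05, SE, edgeR adjusted p = 1.948e-27), fell by the most. IGF1R rose from 1.03 to 6.81 CPM (LFC 2.70 ± 0.17, SE, edgeR adjusted p = 2.731e-14) and MYC from 0.604 to 3.73 CPM (LFC 2.61 ± 0.27, SE, edgeR adjusted p = 8.991e-10), both from low levels. CCND2, ARID3A and ARID3B were the other 3 that rose, with LFC values of 1.30, 0.11 and 0.58. Over mRNAs with at least 10 CPM, 54.5% of the 1080 with a let-7 seed match in the 3′ UTR and 59.9% of the 8345 without were called lower, with median LFC values of −0.16 and −0.25. Among UTRs of at least 3000 bases these shares were 50.5% and 52.0%. Under TMM, LIN28B, IGF2BP1, IGF2BP3 and HMGA1 lay below the median of the mRNAs with a match, and HMGA1 had an LFC of 0.02 under quantile normalization. LIN28A and IGF2BP2, which hold a match but lie below 10 CPM, rose (LFC 1.50 and 1.76).

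All 8 high mobility group genes of the HMGB and HMGN families that were examined fell (median LFC −1.65), where 59.3% of mRNAs with at least 10 CPM fell. Under quantile normalization 8 were called lower, and with the effective length offset 7. HMGA1 had an LFC nearer to 0 than each of them, HMGN4 being the nearest at −0.37, and the differences were not tested. HMGB2, a chromatin protein that peaks in dividing cells, went from 908.1 to 178.9 CPM (LFC −2.34 ± 0.05, SE, edgeR adjusted p = 8.209e-26). HMGB1 and HMGB3 had LFC values of −2.21 each.

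**Figure D4:**
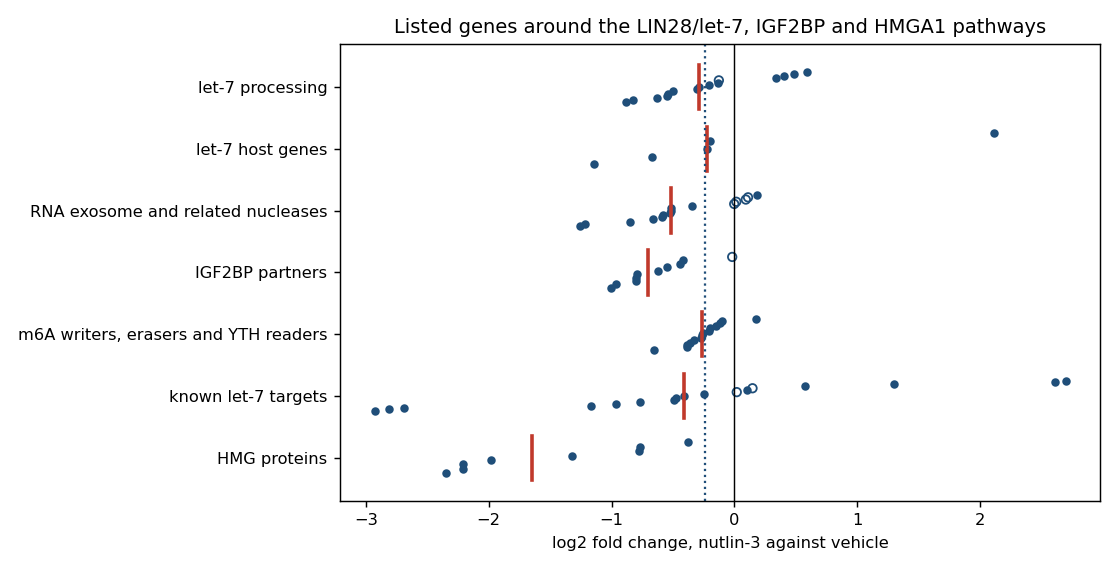
Log2 fold change of nutlin-3 against vehicle (horizontal axis) of each listed gene, by list; filled points passed 5% FDR, open points did not, red bars are the median of a list and the dotted line is the median of mRNAs with at least 10 CPM (−0.24). IGF2BP partners and HMG proteins lie to the left of 0, while let-7 processing genes and known let-7 targets lie on both sides.

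Within conditions, the genes varied among samples with different partners. Pearson's r was taken over the 20 samples, on log2 CPM after subtraction of the mean of each condition, against 9442 other mRNAs with at least 10 CPM, as a description of libraries that share depth and composition. LIN28B was most like TNPO1 (r = 0.929), ATM (0.925) and NUFIP2 (0.924), whose LFC values were −0.55, 0.58 and −0.04. IGF2BP1 was most like ADD2 (0.899), TBC1D16 (0.870) and KCNJ6 (0.845). IGF2BP3 was most like MMD (0.842), DLAT (0.840) and FGF23 (0.832). HMGA1 was most like FKBP8 (0.890) and SCAMP5 (0.861). DIS3L2 was most like SENP3 (0.753), TMEM185A (0.712) and CELF1 (0.702). None of these lists held another of the 7 genes, whose highest r among themselves was 0.706, between LIN28B and IGF2BP3, and whose r for IGF2BP1 and IGF2BP3 was 0.345.

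The label of the cells was checked against markers. All 10 neuroblastoma markers were detected, and 4 rose and 4 fell after nutlin (8 and 1 under quantile normalization). The sums of markers given here are CPM scaled to library size alone, without TMM, unlike the levels above. The mean TMM levels of the markers give a smaller rise for each list. The neuroblastoma markers summed to 4395 to 4935 CPM in vehicle and 5727 to 7248 CPM after nutlin. TH and CHGA, genes of catecholamine synthesis and storage, rose (LFC 0.62 and 0.56), and the transcription factor HAND2 fell (LFC −0.24). The 8 mesenchymal and fibroblast markers summed to 27.0 to 34.0 CPM in vehicle and 63.6 to 78.5 CPM after nutlin, with 3 higher and 2 lower. FOSL1 and COL1A1 were the highest of these by LFC (5.08 and 1.98), and LUM and PDGFRB the lowest (−1.71 and −0.95). Of 9 blood and epithelial markers, CD3E and HBB were at 0 in every sample, and the sum was 1.05 to 2.20 CPM in vehicle and 2.01 to 4.60 CPM after nutlin, with 3 of 6 tested called higher and none lower. The part of these marker changes in the levels of LIN28A and IGF2BP2 was not tested.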

How the data were processed

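The kallisto tables of 10 nutlin and 10 vehicle samples of NGP cells were analysed, grouped by sample title. According to the submitters' processing notes and the study's methods, reads were quantified with kallisto 0.42.4 on an Ensembl index of GRCh38. The authors deposited the estimated count (not normalized), the effective length and the TPM (estimated counts scaled by effective length and library size) of 198968 transcripts. Of these, 191106 (96.05%) had their identifier in GENCODE 44, a later release, and 7862 were left out. The matched transcripts held 96.66% to 96.78% of the counts in vehicle samples and 95.71% to 95.95% in nutlin samples.

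Estimated counts were summed per gene and rounded. Tests covered mRNAs and lncRNAs with a sum of 1 count or more per condition, by edgeR 4.0.16 in R 4.3.3 (TMM, quasi-likelihood F-test, condition as the only term), with Benjamini-Hochberg adjustment over all genes at 5% FDR. An LFC is nutlin over vehicle, and its SE was obtained from the LFC and the F statistic. Transcripts were tested likewise over all transcripts, and their usage with diffSpliceDGE for transcripts with at least 10 counts in at least 10 samples. TPM was used for levels and shares and not in tests. Alternatives used limma 3.58.1 and DESeq2 1.42.0. Scripts were tested on simulated data. Tables and figures were made with Python 3.11.15, pandas 2.3.3 and matplotlib 3.10.9.

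The genes and lists were chosen with earlier results of these data known. Named genes were all 7 members, MDM2, up to 2 called genes with the largest LFC in each direction per list (mean of at least 1 CPM), the 3 most alike mRNAs per member with at least 10 CPM, and transcripts that held at least 10% of a member or were discussed for their test. MYCN, TUT7, AGO3, PABPC1, MIRLET7A1HG, CCND2, ARID3A, ARID3B, HMGN4, the genes that turned under another scaling and the transcripts of small share were added after their values were seen. Replicates are biological according to the study's methods, but the labels do not tie samples to cultures, so p-values measure the spread between these samples. Shared replicate numbers did not pair samples (r of deviations between −0.05 and 0.08 over 8 pairs). Protein sequences were not used here. The values of some genes that this rule or the lists would name are not reported here.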

Additional observations from a re-analysis of the deposited data

Results flagged for a closer look

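In 1 of 14 groups checked (7 genes in each condition, 10 samples each), a sample stood apart from the rest by a gap above Dixon's 95% critical value, as a share of the range of its group. This was DIS3L2 in vehicle replicate 3, at 27.7 CPM, with the next highest vehicle sample at 25.3 CPM and a gap of 0.479 of the range. Chance gives such a gap in about 1 of 20 groups.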

How the results depend on the processing

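Over 9 alternatives (DESeq2 size factors, DESeq2, limma voom, quantile normalization, filterByExpr, no filter, an effective length offset, the replicate block and 1% FDR), 61 of 62 LFC values of the 7 genes kept their direction and their side of the threshold. The exception was HMGA1 under quantile normalization, at 0.024. IGF2BP2 was removed by filterByExpr and has no value there. Listed pathway genes called higher went from 12 to 20 under quantile normalization. Genes with changed transcript usage numbered 2021 with diffSpliceDGE and 4862 with limma diffSplice, where HMGA1 was called as well (adjusted p = 0.0456). The genes among the 7 with changed usage went from 2 to 1 with the replicate block over 16 samples (IGF2BP1 adjusted p = 0.153) and to 1 without it over the same 16 samples (an alternative chosen after seeing the data), so the loss came with the fewer samples. The block changed no other call of the 7 genes, and no vehicle sample was most like the nutlin sample of its own number (0 of 8).

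Shares of a family moved by more than 1 SD when taken from estimated counts: LIN28B to 99.67% in vehicle and 98.42% after nutlin, IGF2BP1 to 68.5% and 68.8%, and IGF2BP3 to 31.4% and 30.9%. From protein-coding transcripts alone IGF2BP1 moved to 49.8% and 55.0%, and IGF2BP3 to 50.1% and 44.5%. Estimated counts are not per length, which sets the order of IGF2BP1 and IGF2BP3 apart from that in TPM. With 5 to 34 counts of LIN28A and 0 to 18 of IGF2BP2 per sample, counting error limits their folds.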
